A study of Mus musculus with 8 samples.

Results

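Oxidative phosphorylation genes were described in mouse hair follicle stem cells, which sit in the bulge of the follicle and renew the hair, taken by cell sorting from back skin. Genes were chosen by symbol: names that begin with the stems of complex I (Ndufa, Ndufb, Ndufc, Ndufs, Ndufv), complex III (Uqcr), complex IV (Cox4 to Cox8) or ATP synthase (Atp5), the 4 Sdh subunit genes of complex II, and the protein-coding genes of the mitochondrial genome. This gave 103 of the 28792 symbols in the tables, 90 in nuclear DNA and 13 in mitochondrial DNA. By their known roles 83 of the 90 nuclear genes encode a subunit, an isoform of one or a supercomplex factor. The other 7 are 4 complex I assembly factors (Ndufaf1 to Ndufaf4), Atp5s and Atp5sl, now named as assembly proteins, and Cox4nb, a protein of the endoplasmic reticulum whose gene adjoins Cox4i1.

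The cKO-labelled cells came from K15CrePGR mice with 2 floxed alleles of the β-catenin gene (Ctnnb1fl/fl), and the Het-labelled cells from K15CrePGR mice with 1 (Ctnnb1+/fl); both carried Rosa-YFPfl/stop/fl. All were females of postnatal day 99 on a C57BL6/129Sv background, with Cre driven by a keratin 15 promoter. The labels differ on their stage: the growth protocol names the resting phase (telogen) and the series design the onset of growth (anagen). LacZ-positive and LacZ-negative bulge cells came from C57BL6 males of postnatal day 24 heterozygous for the Wnt reporter Axin2LacZ/+, at the passage between these phases. Each of the 4 groups is 1 RNA sequencing library. The sources used here do not say whether a library came from 1 mouse or several, or how CrePGR, a hormone-dependent Cre, was induced. Every difference below is therefore a difference between libraries, with no replicate check and no test.

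Values are FPKM, fragments per kilobase of transcript scaled to the mapped fragments, so levels of genes are compared per length; the depth behind a value is unknown. Differences are log2(FPKM + 1) of the cKO-labelled minus the Het-labelled library, and of LacZ-positive minus LacZ-negative cells, for genes that reached 1 FPKM in at least 1 library of the pair. A difference of 0.32 on this scale and one of 1 (2-fold) serve as fixed lines for counting and are not tests. The bulge labels were read against 12 stem cell markers. Krt5 lay between 5272 and 8690 FPKM, Itga6 between 123 and 185 and Cd34 between 223 and 752 in the 4 libraries, while Krt15 lay between 5951 and 7528 FPKM in 3 and is listed at 0 in LacZ-negative cells, which can be a failed estimate. Of the 12 markers, 10 were higher in cKO-labelled cells, as were 60.9% of all measured genes. Their median log2 difference was 0.24, and Lgr5 was lowest (-0.75). In LacZ-positive cells 7 were lower, 6 of them by 0.32 or more, as were 63.4% and 29.6% of all measured genes. Their median there was -0.39, and Tbx1 was lowest (-1.31). The part of these markers in the results below was not tested. Summed over each list, 8 leukocyte markers reached at most 8.97 FPKM, 6 fibroblast markers 23.1, 4 endothelial markers 1.08, 6 melanocyte markers 47.2, 6 adipocyte and brown fat markers 2.96, 5 blood markers 37.5 and 5 nerve and Merkel markers 5.43. Ctnnb1 itself had 370 FPKM in cKO-labelled and 251 in Het-labelled cells, against the label; a gene-level value does not resolve the floxed exons, so these libraries are called by their labels, and every direction in this pair rests on them. Axin2, a Wnt target, stood at 2.12 FPKM in cKO-labelled, 16.3 in Het-labelled cells, and at 19.0 in LacZ-positive cells, against 9.10 in LacZ-negative cells.

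Oxidative phosphorylation moves electrons from NADH and succinate along complexes I to IV of the inner mitochondrial membrane to oxygen, and the proton gradient this builds drives ATP synthase. Complexes I, III, IV and ATP synthase each join subunits from nuclear genes with subunits from mitochondrial DNA, whereas complex II is wholly nuclear and also serves the tricarboxylic acid cycle. Hair follicle stem cells are known for strong glycolysis, and mitochondrial respiration is known to be needed for epidermal and follicle differentiation.

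The nuclear subunits formed a steady profile of high levels. Leaving out 8 tissue isoforms, 75 genes lay between 25.4 and 830.1 FPKM in cKO-labelled, 25.2 and 655.9 in Het-labelled, 23.7 and 991 in LacZ-positive and 30.5 and 1087 in LacZ-negative cells. Their medians were 108, 98.6, 114 and 151 FPKM in the same order. The order of the genes was much the same in every library: across the 79 nuclear subunits above 0 in all 4, Pearson's r of the log2 FPKM between any pair of libraries lay between 0.98 and 0.99. These 79 include the tissue isoforms Cox4i2, Cox6b2, Cox7a1 and Ndufa4l2, and values as low as those of Cox4i2 and Cox7a1 can raise r. Spearman's rho across the same genes lay between 0.96 and 0.99. This is a description across genes, which differ widely in level and are not replicates, and the pairs of libraries come from tables normalised separately.

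**Figure D1:**
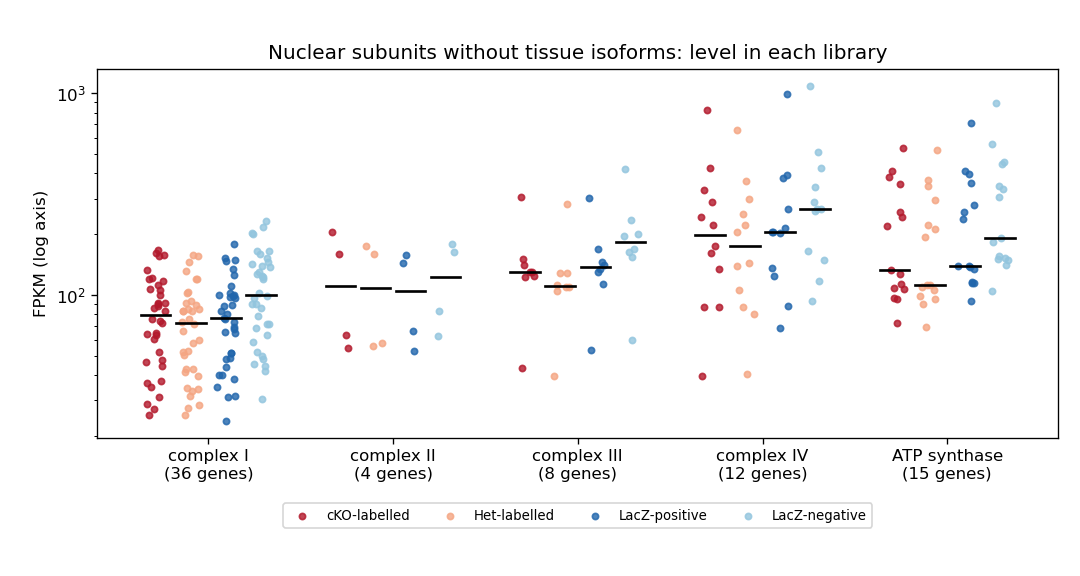
Each point is the FPKM (log axis) of 1 nuclear subunit gene in 1 of the 4 libraries, grouped by complex, and the black bars are medians. The medians of complex IV and ATP synthase stand above that of complex I in all 4 libraries; in cKO-labelled cells ATP synthase has a median of 133 FPKM and complex I one of 79.9.

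Within each complex the levels spread widely. Complex I, the NADH dehydrogenase, was highest for the accessory subunit Ndufa3, at 167 FPKM in cKO-labelled, 157 in Het-labelled, 179 in LacZ-positive cells and 232 in LacZ-negative cells. Its lowest gene by the mean of the 4 was Ndufs1, which carries iron-sulphur clusters of the electron path, at 27.1, 25.2, 31.4 and 30.5 FPKM in the same order. Ndufs1 thus stood several times below Ndufa3 in every library. Of complex II, Sdhc (206, 175, 157 and 179 FPKM), a membrane anchor, and Sdha (160, 159, 143 and 163 FPKM), the catalytic flavoprotein, lay above Sdhb and Sdhd, which stayed between 52.4 and 83.2 FPKM. Complex III ran from the Rieske iron-sulphur protein gene Uqcrfs1 (43.5, 39.6, 53.5 and 59.7 FPKM) to the hinge protein gene Uqcrh (306, 282, 301 and 419 FPKM).

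Complex IV, cytochrome c oxidase, held the highest nuclear gene of all, Cox7b, at 830.1 FPKM in cKO-labelled, 655.9 in Het-labelled cells, and at 991 in LacZ-positive cells, against 1087 in LacZ-negative cells. Cox5a was the lowest of its constitutive subunits, at 39.7, 40.3, 68.4 and 93.3 FPKM in the same order of libraries. ATP synthase was led by Atp5b, the catalytic beta subunit (534, 524, 715 and 899 FPKM). Of the 3 genes for its c subunit, which form 1 protein after processing, Atp5g1 (72.5, 69.0, 93.5 and 105 FPKM) lay below Atp5g2 (243, 212, 238 and 307 FPKM) and Atp5g3 (218, 194, 279 and 345 FPKM) in every library.

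Tissue isoforms of complex IV subunits were near 0 with 2 exceptions. Cox6a2 and Cox8b, the isoforms of striated muscle, are listed at 0 in all 4 libraries, beside 162, 139, 215 and 290 FPKM for Cox6a1, the form of most tissues. Cox7a1, another muscle isoform, stood at 0.227 FPKM in cKO-labelled, 1.19 in Het-labelled cells and at 0.542 in LacZ-positive cells, against 0.850 in LacZ-negative cells. Of 13 muscle markers 12 stayed under 1 FPKM in every library, and Mylpf, a myosin light chain gene, reached 10.6, 7.66, 5.89 and 2.43 FPKM. The lung isoform Cox4i2 stayed at or under 0.0985 FPKM, and the testis isoforms Cox7b2 and Cox8c at or under 0.432.

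The exceptions were Cox6b2 and Ndufa4l2. Cox6b2 (ENSMUSG00000051811, mm9 chromosome 7, 4703396 to 4704696), known as the testis isoform of Cox6b1, stood at 12.3 FPKM in cKO-labelled, 19.1 in Het-labelled cells and at 7.13 in LacZ-positive cells, against 7.34 in LacZ-negative cells; no other gene is listed in its interval. Ndufa4l2 (ENSMUSG00000040280, mm9 chromosome 10, 126951995 to 126959491), a hypoxia-induced relative of the complex IV subunit Ndufa4, stood at 23.3 and 17.2 FPKM in cKO-labelled and Het-labelled cells and at 23.2 and 14.6 in LacZ-positive and LacZ-negative cells. Its interval also holds Shmt2, so reads of the neighbour can enter its value. Ndufa4 itself stood at 87.0, 86.8, 124 and 149 FPKM. Cox7a2l, a factor that joins complexes III and IV and that is known to be shorter in C57BL/6 than in 129 mice, stood at 289, 252, 204 and 266 FPKM, and gene-level values do not show which form was present.

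**Figure D2:**
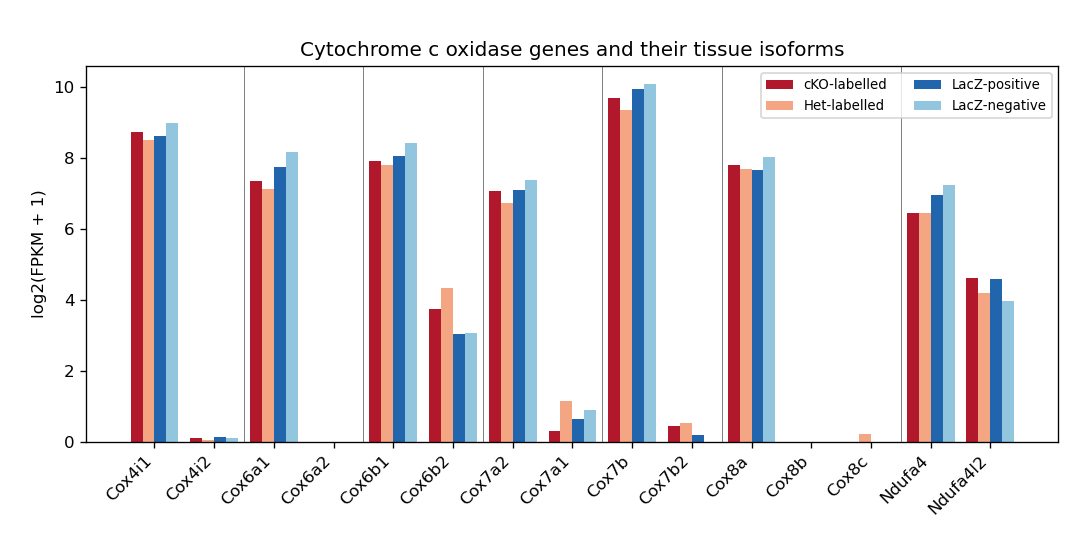
Bars give log2(FPKM + 1) of cytochrome c oxidase genes in the 4 libraries, with each form of most tissues left of its tissue isoforms and grey lines between the groups. Cox6a2 and Cox8b are at 0 in all 4 libraries, while Cox6b2 and Ndufa4l2 are the only tissue isoforms above 2 FPKM.

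The first pair asks what differs when both copies of Ctnnb1 are floxed. Nuclear oxidative phosphorylation genes were slightly higher in cKO-labelled cells: 72 of the 85 measured lay above 0 (background, the share of all 13014 measured genes, 60.9%) and 13 below it (background 39.1%). Their median log2 difference was 0.15, against 0.06 for all genes. A difference of 0.32 or more upward was seen in 6 (background 12.0%) and downward in 2 (background 9.14%), and 0 reached 2-fold (backgrounds 1.80% higher and 2.29% lower). With each library rescaled by 1 of 3 other scalings, between 59 and 61 of the 85 lay above 0 (69.4% to 71.8%), as did between 46.9% and 53.9% of all measured genes. Genes of high level were also higher in general: of those that reached 50 FPKM in at least 1 library, the 63 nuclear members had a median of 0.19 with 92.1% above 0, and all 2023 genes had a median of 0.13 with 73.0% above 0. The 5 members that were not measured are the isoforms Cox4i2, Cox6a2, Cox7b2, Cox8b and Cox8c.

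Complex by complex the medians were 0.15 for complex I (36 genes), 0.09 for complex II (4), 0.20 for complex III (8), 0.15 for complex IV (15 measured) and 0.15 for ATP synthase (15). All 8 complex III genes were above 0 (background 60.9%). Within complex I the 7 core subunits, which bind the flavin and iron-sulphur clusters, had a median of 0.02. It turned negative under the 3 other scalings (lowest -0.06). The 29 accessory subunits had a median of 0.20, which stayed positive under these scalings (lowest 0.12). Of the 29, 27 lay above 0 (background 60.9%). Under each of the 3 other scalings 24 of the 29 did, as did between 46.9% and 53.9% of all measured genes. The core genes Ndufv1 (74.2 FPKM in cKO-labelled against 83.5 in Het-labelled cells, -0.17) and Ndufs8 (25.4 against 27.5 FPKM, -0.11) were among the lowest members, with the accessory gene Ndufs4 (31.3 against 34.3 FPKM, -0.13).

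The highest subunits in this pair were Ndufa4l2 (0.42), Ndufv3 (76.3 FPKM cKO-labelled, 60.0 Het-labelled, 0.34), Cox7b (0.34), Cox7a2 (134 and 105 FPKM in the same order, here and in what follows, 0.34), Ndufs6 (52.2 and 41.2 FPKM, 0.33), Ndufa5 (105 and 84.9 FPKM, 0.31) and Ndufc1 (90.4 and 73.4 FPKM, 0.30). Ndufaf2, a chaperone of late complex I assembly, was above them at 17.2 FPKM in cKO-labelled, 11.9 in Het-labelled cells (0.50). The lowest were Cox7a1 (-0.84), which lies near the minimum of 1 FPKM, and Cox6b2 (-0.60). Others at the low end were Atp5sl (22.5 and 25.6 FPKM, -0.18), Ndufaf1 (12.3 and 13.6 FPKM, -0.13), Ndufaf4 (6.06 and 6.52 FPKM, -0.09) and Sdhb (54.4 and 57.4 FPKM, -0.08). The other complex II genes were at 0.01 (Sdha), 0.23 (Sdhc) and 0.18 (Sdhd).

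**Figure D3:**
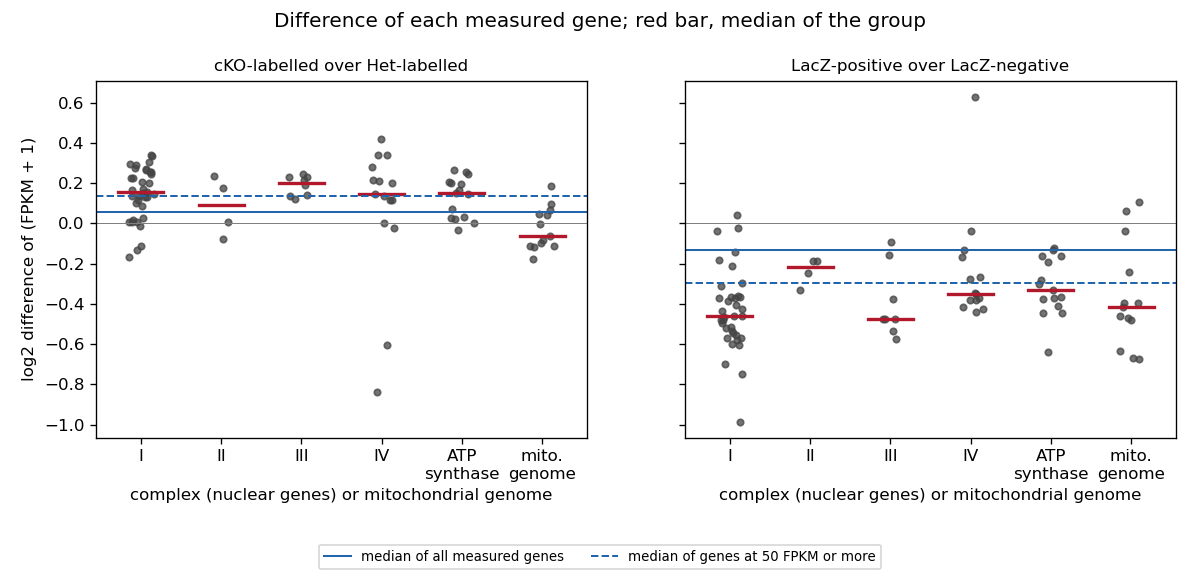
Each point is the log2 difference of (FPKM + 1) of 1 measured gene, for the pair named above each panel; red bars are group medians, and blue lines are the medians of all measured genes (solid) and of genes at 50 FPKM or more (dashed). Nuclear genes cluster above 0 for the cKO-labelled library and below 0 for LacZ-positive cells, where the complex I median is -0.46 and Ndufa11 is lowest at -0.98.

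The genes of mitochondrial DNA lay on both sides of 0. Of 13, 5 were above 0 (background 60.9%) and 8 below it (background 39.1%) in cKO-labelled cells, with a median of -0.06, against 0.06 for all genes. None was past 0.32 either way (backgrounds 12.0% higher and 9.14% lower). Upper-quartile scaling kept 8 below 0 (46.1% of all genes), with a median of -0.10. Centring on genes at 5 FPKM or more and rescaling without mitochondrial features each put 11 below 0, with medians of -0.13 and -0.14. Of all genes, 52.4% and 53.1% lay below 0 under these 2 scalings. All 3 cytochrome c oxidase subunits of mitochondrial DNA were slightly lower: mt-Co1 stood at 10905 FPKM in cKO-labelled, 11792 in Het-labelled cells, mt-Co2 at 11881 and 12872, and mt-Co3 at 9865 and 10670. mt-Cytb, the cytochrome b of complex III, had the lowest difference, at 4432 and 5015 FPKM (-0.18), and mt-Nd1 of complex I the highest, at 5287 and 4653 (0.18). Of the 13 genes 10 share their interval with another row: mt-Nd1 with the transfer RNAs mt-Ti and mt-Tq (mt-Tq had 654 FPKM in cKO-labelled cells and listed at 0 in Het-labelled cells), mt-Nd2 with mt-Tw and mt-Co1 with mt-Ts1, so these values are uncertain. The summed FPKM of the 13 genes was 9.27 times that of the 90 nuclear members in cKO-labelled and 10.7 times in Het-labelled cells. The mitochondrial ribosomal RNAs were higher in cKO-labelled cells, with mt-Rnr1 at 770 and 511 FPKM and mt-Rnr2 at 598 and 288. They are poorly captured by libraries made from polyadenylated RNA.

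The second pair sets bulge cells in which the Axin2 reporter was active beside cells in which it was not. Nuclear members were lower in LacZ-positive cells almost without exception: 81 of 84 measured lay below 0 (background 63.4%) and 3 above it (background 36.6%), and 56 were lower by 0.32 or more (background 29.6%). Ndufa4l2 alone was higher by 0.32 or more (1 gene, background 16.4%), and 0 reached 2-fold on this scale (backgrounds 4.67% higher and 2.60% lower). Their median was -0.38, against -0.13 for the 13283 measured genes. The scale of this pair matters: a median of -0.17 was found over the 9252 genes that reached 5 FPKM in each library, and relative to it the members' median was -0.21. Rescaled to the summed FPKM without mitochondrial features, 22 of 84 (26.2%) lay above 0 with a median of -0.11, and 62.3% of all genes did, with a median of 0.11. Under that rescaling the share of members lower by 0.32 or more no longer exceeded that of all genes. Under centring and upper-quartile scaling it still did.

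High-level genes were also lower in general in LacZ-positive cells. Of those that reached 50 FPKM in at least 1 library, the 69 nuclear members, each below 0, had a median of -0.38 with 69.6% lower by 0.32 or more. All 2308 genes at that level had a median of -0.30, with 79.4% below 0 and 46.9% lower by 0.32 or more. Proliferation genes were higher in LacZ-positive cells in 15 of 15 cases (background 36.6%), 12 of them by 2-fold or more (background 4.67%), with a median of 2.14. In cKO-labelled cells they were lower in 14 of 15 (background 39.1%), 8 of them by 2-fold or more (background 2.29%), with a median of -1.08. Top2a, a topoisomerase of dividing cells, had 38.3 FPKM in LacZ-positive cells, against 6.42 in LacZ-negative cells, and 1.11 in cKO-labelled, 11.6 in Het-labelled cells. The summed FPKM of 15 such genes was 382 in LacZ-positive cells, against 154 in LacZ-negative cells, and 124 in cKO-labelled, 168 in Het-labelled cells; Pcna, the 1 gene higher in cKO-labelled cells, gave 79.1 and 71.8 FPKM of the last 2 sums. Their part in the difference of the members was not tested. In sorted bulk cells, fewer cells that express a gene and less RNA per cell cannot be told apart.

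By complex the medians in LacZ-positive cells were -0.46 for complex I, -0.22 for complex II, -0.47 for complex III, -0.35 for complex IV (14 measured) and -0.33 for ATP synthase. Complex II, the 1 complex with no subunit from mitochondrial DNA, lay nearest to all genes: Sdha stood at 143 FPKM in LacZ-positive cells, against 163 in LacZ-negative cells (-0.19), Sdhb at 66.1 and 83.2 (-0.33), Sdhc at 157 and 179 (-0.19) and Sdhd at 52.4 and 62.2 (-0.24). With only 4 genes this is a description, and its median turned to 0.05 under the rescaling without mitochondrial features. Core and accessory subunits of complex I had medians of -0.37 and -0.46, both negative under every scaling tried.

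Ndufa11 (ENSMUSG00000002379, mm9 chromosome 17, 56857185 to 56863671), an accessory membrane-arm subunit of complex I, was the lowest member, at 23.7 FPKM in LacZ-positive cells, against 47.8 in LacZ-negative cells (-0.98). The FPKM themselves differ by slightly more than 2-fold, and no other gene is listed in its interval. In cKO-labelled and Het-labelled cells it stood at 28.7 and 28.5 FPKM. After it came Ndufc1 (73.5 and 124 FPKM in LacZ-positive and LacZ-negative cells, the order of the pairs that follow, -0.75), Ndufaf3 (11.4 and 19.3 FPKM, -0.70), Ndufb10 (97.5 and 159 FPKM, -0.70), Atp5e (358 and 557 FPKM, -0.64), the epsilon subunit of the ATP synthase head, Ndufc2 (99.4 and 152 FPKM, -0.60), Ndufv1 (80.8 and 123 FPKM, -0.60) and Ndufaf2 (11.3 and 17.5 FPKM, -0.59). Complex I genes and complex I assembly factors made up 7 of these 8, and 40 of the 84 nuclear members measured (47.6%).

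The members nearest to or above 0 were Ndufa4l2 (0.63), Ndufs1 (31.4 FPKM in LacZ-positive cells, against 30.5 in LacZ-negative cells, 0.04), Ndufaf1 (11.7 FPKM in each, 0.00056), Atp5s (8.51 and 8.57 FPKM, -0.01), Ndufa12 (88.1 and 89.6 FPKM, -0.03), Cox6b2 (-0.04), Ndufab1 (76.7 and 78.9 FPKM, -0.04), the acyl carrier protein of mitochondria, and Uqcrc2 (145 and 155 FPKM, -0.09). Ndufs1, Ndufa4l2 and Uqcrc2 share their interval with other genes. Ndufa4l2 was thus the highest of the subunits and isoforms in both pairs of libraries.

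The 13 mitochondrial genes had a median of -0.42 in LacZ-positive cells, against -0.13 for all genes. Of them 11 lay below 0 (background 63.4%) and 9 were lower by 0.32 or more (background 29.6%). Rescaled without mitochondrial features, 9 of the 13 lay below 0, with a median of -0.15. Of all genes under that rescaling 37.7% lay below 0, with a median of 0.11. mt-Nd3 stood at 3967 FPKM in LacZ-positive cells, against 6323 in LacZ-negative cells (-0.67), mt-Co3 at 12236 and 19445 (-0.67) and mt-Co2 at 13629 and 21157 (-0.63). These were the 3 lowest. mt-Atp6 (10087 and 14071 FPKM), mt-Nd6 (741 and 1027), mt-Nd1 (4556 and 6271), mt-Cytb (5879 and 7847), mt-Nd2 (3021 and 3978) and mt-Co1 (11638 and 15292) followed, with differences between -0.48 and -0.39.

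The other 4 genes did not follow this range. mt-Atp8 stood at 40827 FPKM in LacZ-positive cells, against 37937 in LacZ-negative cells (0.11) and mt-Nd4l at 3857 and 3690 (0.06), mt-Nd5 at 819 and 842 (-0.04), and mt-Nd4 at 5301 and 6264 (-0.24). mt-Atp8 and mt-Nd4l are the short leading frames of 2 mRNAs whose second frames, mt-Atp6 and mt-Nd4, overlap them and were lower. The tables give mt-Atp8, mt-Atp6 and mt-Co3 1 interval and mt-Nd4l and mt-Nd4 another, so their reads cannot be cleanly divided, and the value of mt-Atp8, the highest of all members, is uncertain. The same holds for mt-Nd5 and mt-Nd6, on opposite strands of 1 interval; whether the counting used strand is not stated. Summed, mitochondrial genes stood at 10.2 times the 83 nuclear subunits in LacZ-positive and 9.86 times in LacZ-negative cells; without mt-Atp8 and mt-Nd4l they stood at 6.27 and 7.02 times the same subunits, which turns the order.

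**Figure D4:**
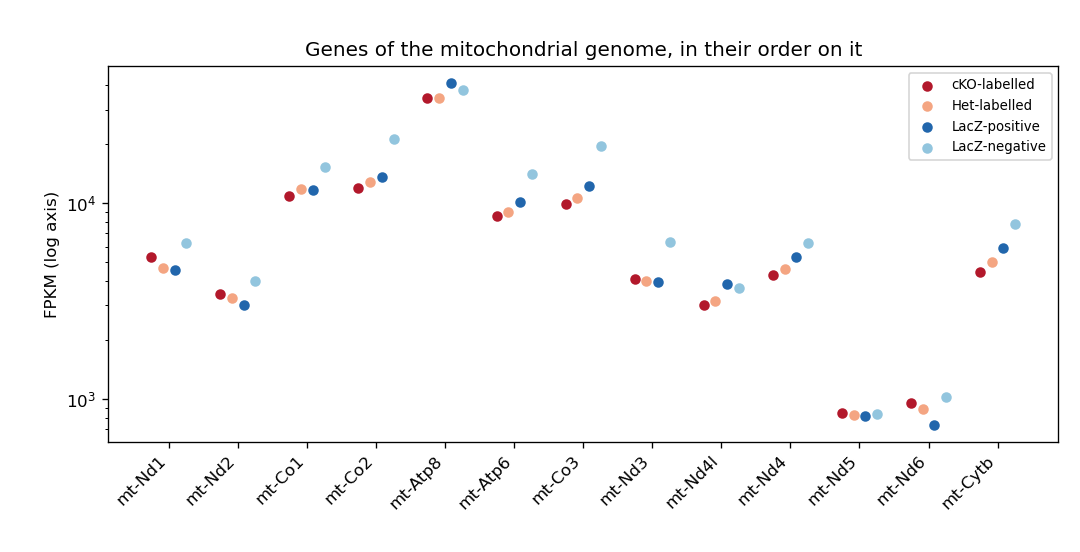
Points give the FPKM (log axis) of the 13 protein-coding genes of mitochondrial DNA in the 4 libraries, in their order along it. LacZ-negative cells are highest for 10 of the 13, while mt-Atp8 and mt-Nd4l are highest in LacZ-positive cells and mt-Nd5 differs little among the 4 libraries, between 819 and 853 FPKM.

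Set side by side, the 2 pairs share no library. Of 77 nuclear subunits measured in both, 66 (85.7%) lay above 0 in the first pair and below 0 in the second, as did 42.3% of all 12483 genes measured in both. Another 9 were lower in both and 2, Ndufs1 and Ndufa4l2, higher in both. The contrast depends on level and scaling. Of all genes that reached 50 FPKM in a pair, 73.0% lay above 0 in the first pair and 79.4% below 0 in the second. Rescaled without mitochondrial features, 59 of 85 nuclear members lay above 0 in the first pair and 62 of 84 below 0 in the second. Of all measured genes under that rescaling, 46.9% lay above 0 in the first pair and 37.7% below 0 in the second. Across the 77 subunits Pearson's r between the pairs was -0.0049 and Spearman's rho -0.13, as a description across genes.

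Promoters were read for sequence features the choice by name did not use. RefSeq promoter windows (GRCm38.p6, 250 bases before to 50 after the start of the gene) were matched for 74 of 90 nuclear members, 68 of them subunits; 6 of the 74 have more than 1 window, and a gene was counted where any of its windows held the motif. The core of the site of NRF1, a factor known for its sites in respiratory chain genes, CGCATGCG (its own reverse complement), was found in 9 of 68 (13.2%), in 2.07% of all 27025 genes with a window and in 4.37% of the 8915 measured ones. The core CCGGAAGT of ETS factors such as GABP, on either strand, was in 5 of 68 (7.35%), against 4.31% of all and 8.93% of measured genes. CCAAT on either strand was in 42.6%, 41.1% and 43.1%. The NRF1 core was in 4 of 14 ATP synthase, 2 of 5 complex III, 2 of 32 complex I, 1 of 14 complex IV and 0 of 3 complex II genes.

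Windows are shown for Ndufa11, the lowest member in LacZ-positive cells, for Uqcr11, the 1 subunit with both cores, and for the ATP synthase gene Atp5g2 and the complex IV gene Cox8a, each 5′ to 3′ on the strand of its gene, with NRF1 and ETS cores in capitals. Ndufa11 lies at chr17:56717512-56717811 (plus strand), Uqcr11 at chr10:80406772-80407071 (minus strand), Atp5g2 at chr15:102670998-102671297 (minus strand) and Cox8a at chr19:7217567-7217866 (minus strand) (GRCm38.p6).
Ndufa11: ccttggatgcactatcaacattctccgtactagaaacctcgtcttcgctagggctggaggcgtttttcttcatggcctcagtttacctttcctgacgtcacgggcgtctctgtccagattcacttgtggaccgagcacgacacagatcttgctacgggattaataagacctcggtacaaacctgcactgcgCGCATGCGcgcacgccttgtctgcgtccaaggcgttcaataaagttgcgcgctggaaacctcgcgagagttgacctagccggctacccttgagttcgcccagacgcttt
Uqcr11: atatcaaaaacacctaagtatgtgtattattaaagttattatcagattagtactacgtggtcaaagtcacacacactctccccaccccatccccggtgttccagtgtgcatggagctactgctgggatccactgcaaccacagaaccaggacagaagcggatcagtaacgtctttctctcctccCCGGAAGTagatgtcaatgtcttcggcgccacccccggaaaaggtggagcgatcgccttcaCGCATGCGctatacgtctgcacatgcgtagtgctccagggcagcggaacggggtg
Atp5g2: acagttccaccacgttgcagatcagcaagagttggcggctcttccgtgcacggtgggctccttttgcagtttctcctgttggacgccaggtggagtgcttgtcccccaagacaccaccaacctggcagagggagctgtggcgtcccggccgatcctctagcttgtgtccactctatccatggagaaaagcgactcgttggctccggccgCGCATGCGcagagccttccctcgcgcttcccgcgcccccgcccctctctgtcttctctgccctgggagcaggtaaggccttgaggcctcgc
Cox8a: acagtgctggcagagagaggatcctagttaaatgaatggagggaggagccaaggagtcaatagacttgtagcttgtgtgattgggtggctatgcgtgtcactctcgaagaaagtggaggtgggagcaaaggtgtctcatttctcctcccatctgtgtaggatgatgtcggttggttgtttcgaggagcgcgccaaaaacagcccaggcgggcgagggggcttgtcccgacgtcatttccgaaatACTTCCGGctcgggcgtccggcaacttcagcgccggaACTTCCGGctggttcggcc
Ndufa11 and Atp5g2 each hold 1 NRF1 core upstream of the start. Uqcr11 holds 1 ETS core upstream and 1 NRF1 core that spans the start, and Cox8a holds 1 ETS core that spans the start and 1 downstream of it; on the opposite strand this core reads ACTTCCGG. A match is a run of letters and not a measured binding site. Uqcr11 stood at 141 and 128 FPKM in cKO-labelled and Het-labelled cells (0.14) and at 141 and 196 in LacZ-positive and LacZ-negative cells (-0.47). Cox8a, with no NRF1 core, stood at 222 and 205 FPKM (0.12) and at 203 and 259 (-0.35).

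Other genes of the mitochondrion were read from fixed lists, and the direction of most of their medians depended on the scaling. Beside the counts of these and the later lists, 60.9% of all measured genes lay above 0 in the first pair. In the second pair 63.4% lay below 0. Of 18 tricarboxylic acid cycle genes, 15 were higher in cKO-labelled cells, 2 of them by 0.32 or more (background 12.0%). Their median was 0.06, as for all genes. In LacZ-positive cells 16 were lower, 4 of them by 0.32 or more (background 29.6%), with a median of -0.22, against -0.13 for all genes. Under the rescaling without mitochondrial features both medians turned, to -0.02 and 0.04. Idh3b, a subunit of the NAD-dependent isocitrate dehydrogenase, stood at 66.1 FPKM in LacZ-positive cells, against 94.0 in LacZ-negative cells, and Cs, citrate synthase, at 71.6 and 62.9. Of 13 measured complex IV assembly genes, 8 were higher in cKO-labelled cells (median 0.10) and 12 lower in LacZ-positive cells (median -0.26), and both medians kept their sign under the 3 other scalings. Sco2, a copper chaperone, stood at 1.52 FPKM in LacZ-positive cells, against 5.67 in LacZ-negative cells (-1.40) and shares its interval with another row. Among 11 complex I assembly genes, which include the 4 Ndufaf members, Acad9 was lowest in cKO-labelled cells (48.5 against 74.4 FPKM, -0.61); the medians were 0.01 in the first pair and -0.09 in the second, and turned to -0.06 and 0.14 under that rescaling.

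Assembly genes of complexes II and III (6 measured) had medians of 0.01 and -0.16, which that rescaling turned to -0.06 and 0.09, and Uqcc, which helps to build complex III, was the 1 gene past 2-fold higher, at 35.4 FPKM in LacZ-positive cells, against 17.1 in LacZ-negative cells (1.01). ATP synthase assembly and regulator genes (6) had medians of 0.04 and -0.26, which it turned to -0.03 and 0.0014; the inhibitor gene Atpif1 stood at 287 and 372 FPKM in LacZ-positive and LacZ-negative cells. Electron carrier and quinone genes (17) had medians of 0.03 and -0.21, which it turned to -0.03 and 0.03. Cycs, the cytochrome c that carries electrons to complex IV, differed little, at 13.2 and 13.5 FPKM in cKO-labelled and Het-labelled cells and 20.8 and 20.3 in LacZ-positive and LacZ-negative cells, and Coq10b was highest in the first pair (15.3 and 8.42 FPKM, 0.79).

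Genes that copy and transcribe mitochondrial DNA (12 measured) had medians of 0.04, which it turned to -0.03, and -0.28, which stayed negative. Polrmt, the mitochondrial RNA polymerase, stood at 11.6 FPKM in LacZ-positive cells, against 25.3 in LacZ-negative cells (-1.06), while Tfam, which packs and activates mitochondrial DNA, stood at 32.0 and 31.4. Regulators of mitochondrial biogenesis had medians of -0.06 (8 measured) and -0.04 (7), the second of which turned to 0.25 under it. The coactivator Ppargc1a stayed under 1.30 FPKM in all 4 libraries. Nrf1 stood at 12.2 and 11.4 FPKM in cKO-labelled and Het-labelled cells and 12.7 and 13.1 in LacZ-positive and LacZ-negative cells, and Gabpa at 32.3 and 30.7, and 26.0 and 24.8, in the same order.

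Carriers, pores and uncoupling proteins (7 measured) had medians of 0.07 and -0.18, which it turned to -0.0095 and 0.08. One gene stood far out: Ucp2, a carrier of the inner membrane, was at 23.5 FPKM in cKO-labelled, 78.4 in Het-labelled cells (-1.69), and at 496 in LacZ-positive cells, against 564 in LacZ-negative cells (-0.18). No other row lists its interval. The adenine nucleotide carriers, which exchange the ATP made for ADP, lay close to the members: Slc25a4 was at 0.21 and -0.33 and Slc25a5 at 0.07 and -0.15 in the 2 pairs.

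Ribosomal, glycolysis and antioxidant genes had medians of the same sign as the nuclear members in both pairs as deposited. Those of both ribosomal families were of like size. In LacZ-positive cells the glycolysis and antioxidant medians lay nearer to that of all genes. Mitochondrial ribosomal protein genes had medians of 0.13 (58 of 76 above 0) in cKO-labelled cells and -0.38 (74 of 76 below 0) in LacZ-positive cells, cytoplasmic ribosomal protein genes 0.18 (74 of 78 above 0) and -0.32 (78 of 78 below 0), and glycolysis genes 0.10 (14 of 18 above 0) and -0.22 (14 of 18 below 0). The glycolysis median in LacZ-positive cells turned to 0.04 under the rescaling without mitochondrial features, whereas both ribosomal families kept their signs in both pairs under every scaling tried. Antioxidant genes had medians of 0.25 and -0.26, the second of which turned to 0.0030 under that rescaling, with 16 of 18 above 0 in the first pair and 14 of 18 below 0 in the second. Nuclear respiratory genes, at 0.15 and -0.38, lay within the range of these families in the first pair. In the second they lay at its low end, beside mitochondrial ribosomal protein genes. Immediate early genes, which differ with handling as well as with signalling, were higher in cKO-labelled cells in 13 of 13 cases (background 60.9%, median 1.19). In LacZ-positive cells 12 of 13 were higher (background 36.6%, median 0.59). The part of immediate early genes in these differences was not tested.

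**Figure D5:**
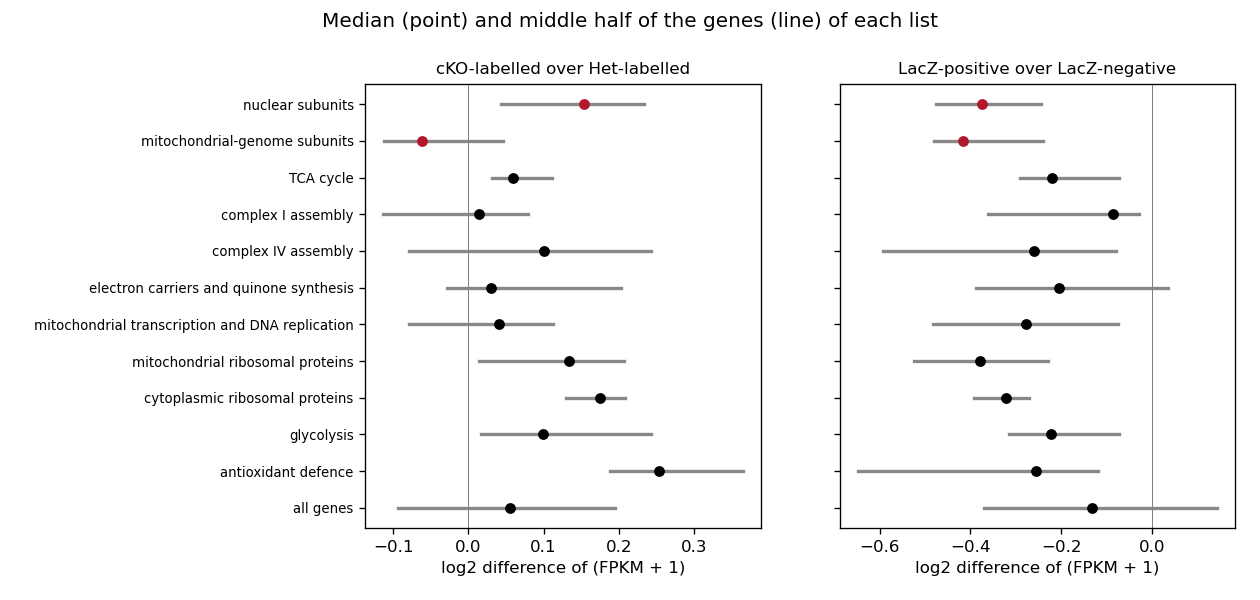
Points are medians and lines span the middle 50% of the log2 differences of (FPKM + 1) in each list, with oxidative phosphorylation genes in red. Nuclear subunits lie beside mitochondrial and cytoplasmic ribosomal protein genes in both pairs, and the mitochondrial-genome subunits lie below 0 in both, at -0.06 and -0.42.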

How the data were processed

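The 103 genes, their grouping and all lists were chosen with earlier results of these data known. Groups follow the sample labels; the 4 chromatin samples were not analysed here. Per the labels' protocols, libraries were made from column-purified RNA with a polyadenylated-RNA kit (TruSeq). Values in both deposited tables (32091 rows each) are FPKM per the file headers. The log2 fold change of cKO over Het that the authors added served only as a check and lay within 0.01 of the FPKM ratio in all 101 member rows above 0 in both libraries. TopHat2 2.0.4, TopHat, Cufflinks 2.1.1, mm9 and GRCm38 are listed, without roles, in the submitters' processing notes; how values were scaled, and how shared reads and strand were handled, is not stated. Coordinates reach 152509964 on chromosome 7, past the last GRCm38.p6 gene end there (145324059), so they were taken as mm9, with starts counted from 0 in the tables and from 1 here. One transfer RNA, mt-Ts1, held between 20.6% and 28.1% of each library's FPKM sum, which can shift all other values.

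Rows of 1 symbol were summed (Ndufb8 has 2). Differences used a pseudocount of 1, which understates changes of low genes, and a minimum of 1 FPKM in at least 1 library of a pair, reached by 85 of 90 nuclear members in the first pair and 84 in the second. Of the nuclear members 25 share their interval with other genes. FPKM keep no counts, so no interval was computed, and with 1 library a group there is no test. Named genes were all mitochondrial genes, complex II genes, tissue isoforms, the extremes of each complex by level, and the 8 highest and 8 lowest nuclear members of each pair at 5 FPKM or more; further genes were added after their values were seen. Alternatives were other pseudocounts (0.1 and 5), minimums, scalings and member choices; a minimum of 50 FPKM, and the medians of the other lists under the 3 scalings, were added after seeing the data. Steps were tested on simulated pairs. Python 3.11.15, pandas 2.3.3 and NumPy 2.4.6 were used.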

Additional observations from a re-analysis of the deposited data

How the results depend on the processing

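With 1 library a group and unknown depth, small differences and library effects cannot be told apart, and leaving out a library would leave a group empty. No paired analysis was possible because each group has 1 library. The direction of the nuclear median held under every alternative tried in both pairs, at other sizes.

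In the first pair, a pseudocount of 0.1 put 1 nuclear member past 2-fold. A pseudocount of 5 left 1 nuclear member lower by 0.32 or more, and 887 of all genes higher and 669 lower by that much, with 144 higher and 159 lower by 2-fold. A minimum of 5 FPKM left 1 nuclear member and 702 of all genes lower by 0.32 or more. Centring on the median of genes at 5 FPKM left 61 nuclear members above 0, with 2 higher by 0.32 or more, and turned the all-gene median to -0.012; upper-quartile scaling gave 61 and 2. Rescaling without mitochondrial features gave 59 and 2 and turned the all-gene median to -0.016. A minimum of 50 FPKM gave 58 above 0 and 0 lower by 0.32 or more, and 309 of all genes higher and 151 lower by 0.32, with 69 and 64 past 2-fold.

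In the second pair scaling moved most values. Centring gave medians of -0.21 for nuclear members, -0.25 for mitochondrial genes, -0.29, -0.047, -0.30 and -0.18 for complexes I to IV, -0.16 for ATP synthase and 0.036 for all genes, with 16 nuclear members above 0 and 19 lower by 0.32 or more, and 2067 of all genes lower by that much and 224 by 2-fold. Upper-quartile scaling gave -0.22, -0.26, -0.30, -0.058, -0.31, -0.19, -0.17 and 0.012 in the same order, with 13 nuclear members above 0 and 22 lower by 0.32 or more, and 2267 of all genes lower by that much. Rescaling without mitochondrial features gave -0.11, -0.15, -0.19, 0.050, -0.21, -0.082, -0.061 and 0.11. Of 84 nuclear members, 22 lay above 0 and 8 were lower by 0.32 or more. Of all 13303 genes, 3906 were higher and 1530 lower by 0.32, with 196 lower by 2-fold. The share of members lower by 0.32 or more thus lay below that of all genes. A pseudocount of 0.1 put 1 nuclear member (Ndufa11) past 2-fold and 528 of all genes lower by 2-fold. A pseudocount of 5 gave 1331 of all genes higher by 0.32, and 282 higher and 178 lower by 2-fold. No minimum gave an all-gene median of -0.026, and a minimum of 5 FPKM gave 1390 genes higher by 0.32. Keeping members alone in their interval left 0 nuclear members higher by 0.32. Of the mitochondrial genes it left only mt-Co2, mt-Nd3 and mt-Cytb, so the mitochondrial median of -0.63 is the value of mt-Co2. A minimum of 50 FPKM left 0 nuclear members above 0 and 0 higher by 0.32, an all-gene median of -0.30, and 238 of all genes higher and 1083 lower by 0.32, with 97 and 105 past 2-fold.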
